A study of Mus musculus with 6 samples.

Results

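Across 6 mouse RNA-seq libraries, 323 genes separated each of 5 myogenic libraries from embryonic fibroblasts (MEFs). Of these, 164 were at least 4-fold higher and 159 at least 4-fold lower in every myogenic library than in the MEF library. The genes higher in muscle cells included muscle regulatory factors, the subunits of the muscle acetylcholine receptor and parts of the contractile apparatus, and those lower included collagens, other matrix proteins and limb patterning factors. A gene also had to reach a mean of 5 CPM (counts scaled to the library's TMM-adjusted total) on the side where it was higher. The 323 were drawn from 11626 genes that reached 5 CPM on a side, of 38924 in the files. Shares of 1.41% higher and 1.37% lower are thus the background for list counts of the rule in all 5 libraries. Where a library is left out, the background changes too, to 173 to 215 higher and 158 to 282 lower genes. The 323 genes were chosen by their difference from MEFs, so those differences are given as descriptions, without a test.

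The series set satellite cells, which are muscle's resident stem cells, beside induced myogenic progenitors (iMPCs) obtained by reprogramming fibroblasts. Quiescent satellite cells (QSC) had 2 libraries, labelled mouse 1 and mouse 3. Activated satellite cells (ASC) had 1 library, titled ASCmyo-Pax7-plus-p1. Sorted iMPCs had 1 library positive and 1 negative for a nuclear GFP reporter of Pax7. The MEF group had 1 library. Runs of 5 values below follow the order QSC of mouse 1, QSC of mouse 3, ASC, Pax7-positive iMPCs and Pax7-negative iMPCs. Per the labels' protocols, the medium of expanded iMPCs held no doxycycline but contained RepSox, forskolin and an inhibitor of GSK3. The labels give no strain, age or sex, no medium for ASC and MEFs, no reprogramming factor, and do not say whether the iMPC fractions came from 1 culture. Reads of an introduced Myod1 copy, if there was one, cannot be told apart here from those of the gene itself. All differences share the MEF library, so anything peculiar to it enters every one of them.

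Satellite cells lie beneath the basal lamina of the muscle fibre and are marked by the paired-box factor Pax7. When they are activated they use the basic helix-loop-helix factors Myf5, Myod1, Myog and Myf6, which bind E-box DNA motifs and switch on genes of the sarcomere, the neuromuscular synapse and calcium handling. Fibroblasts of the embryo derive largely from mesenchyme that secretes fibrillar collagen and other matrix, and limb mesenchyme keeps a positional code of Hox and other homeobox genes.

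Library totals ranged from 20859611 to 29279686 counts. Of the defining markers, Pax7, Myod1 and Des were above MEFs in all 5 myogenic libraries. For Pax7 this included, at 6.25 CPM, the iMPC fraction sorted as negative for its reporter. Col1a1, Col1a2, Pdgfra and Thy1 were present in MEFs. Pdgfra and Thy1, surface proteins of fibroblasts, were however higher in Pax7-negative iMPCs (104.6 and 61.5 CPM) than in MEFs (73.8 and 33.8 CPM), and neither met the rule. The sexes were mixed: the Y-linked Ddx3y was at 454 CPM in QSC of mouse 1 and 85.2 CPM in ASC and at most 0.226 CPM elsewhere, while Xist was at 530.0 CPM in QSC of mouse 3, 39.1 and 24.7 CPM in the iMPC fractions and 41.9 CPM in MEFs. Treated together as 1 side in edgeR's quasi-likelihood test, the 5 libraries gave 0 genes called higher and 0 called lower of 17116 (Benjamini-Hochberg, adjusted p under 0.05). At an unadjusted p under 0.05 edgeR passed a smaller share of genes than that threshold lets through when nothing differs. DESeq2 called 217 higher and 41 lower at an adjusted p under 0.05, and without adjustment it gave 1019 higher genes and 313 lower ones. The edgeR test takes the differences among satellite cells and iMPCs as its error (biological coefficient of variation 0.935). An exact permutation of 1 library against 5 cannot go below 1/6.

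The plot of mean myogenic level against MEF level shows both sets of genes. Most higher genes lay near 0 in fibroblasts: 119 of 164 were under 1 CPM in MEFs and 17 had 0 counts there. Summed over the 164 genes, the myogenic libraries held 23259, 17598, 33949, 13696 and 11778 CPM, against 382 CPM in MEFs. The 159 lower genes summed to 42415 CPM in MEFs and to 1273, 928, 2443, 1157 and 5394 CPM in the myogenic libraries. The direction of these sums follows from the rule, and single genes carried much of some. Gal held 7509 CPM in QSC of mouse 1, and Col1a1 and Thbs1 held 8921 and 8144 CPM in MEFs. Of the higher genes, 53 were at least 16-fold and 14 at least 64-fold above MEFs in every library. Of the lower genes, 23 were at least 16-fold and 1 at least 64-fold below. As these are bulk samples, fewer cells of a type and less RNA per cell cannot be told apart.

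**Figure D1:**
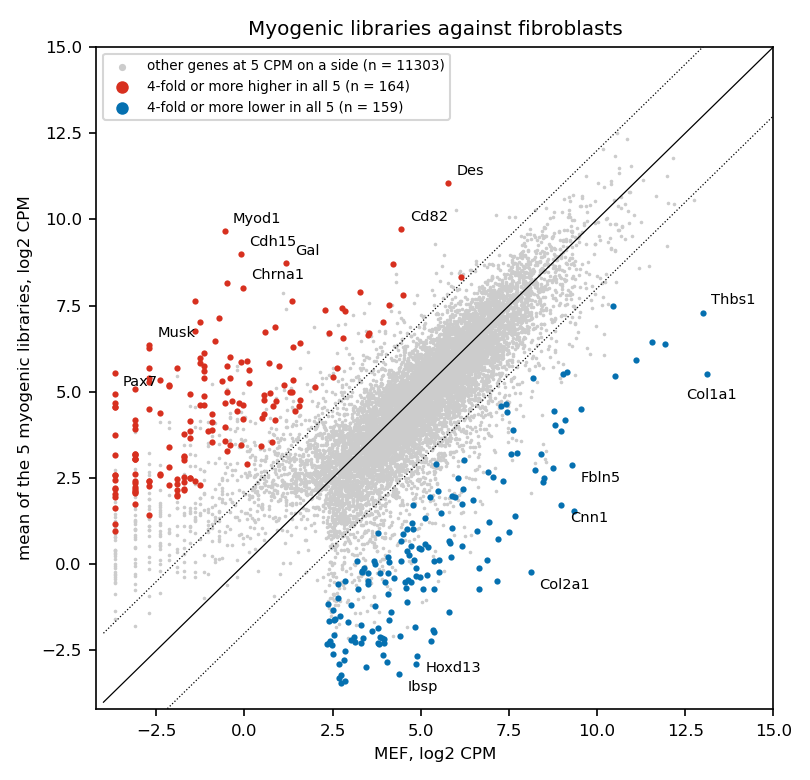
Mean log2 CPM of the 5 myogenic libraries (vertical axis) against log2 CPM in the MEF library (horizontal axis), with 1 point per gene, a solid line of equality and dotted lines at 4-fold. The 164 red genes lie above the upper dotted line, most of them at the low end of MEF expression, and the 159 blue genes lie below the lower one.

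On the list of muscle regulatory factors and cofactors, 6 of 24 measured genes were higher in all 5 libraries and 0 were lower. The median log2 difference over the list was 1.35, against -0.08 over all genes at 5 CPM. Myod1 (ENSMUSG00000009471), which commits cells to the muscle lineage, was at 1835, 629, 1029, 718 and 404 CPM, against 0.598 CPM in MEFs. Its lowest myogenic library, Pax7-negative iMPCs, was still 676-fold above MEFs (exact 95% counting interval 416 to 1182), and QSC of mouse 1 was highest. Myog (ENSMUSG00000026459), which drives terminal differentiation, was at 189, 4.07, 2054, 892 and 1358 CPM, against 0.635 CPM. It was high in ASC and both iMPC fractions and low in QSC of mouse 3, which decides its place in the set: the log2 difference of that library from MEFs was 2.54, and 1.98 under library size scaling. Myf5, an early factor of the family (ENSMUSG00000000435), was at 84.1, 124, 28.5, 3.57 and 1.05 CPM, against 1 count (0.0374 CPM). The satellite cells stood above both iMPC fractions. Next to Myf5 in the genome, Myf6, the factor of mature fibres, was at 2.24, 2.62, 25.4, 0.418 and 3.71 CPM, against 0 counts. The Pax7-positive iMPC value is 3.73-fold above MEFs when the 0 is set to 3 counts, and its exact 95% interval starts at 2.62. The 4-fold call of Myf6 therefore rests on the prior count of 2. Intervals of this kind cover counting error only, and a ratio against 3 counts leaves out the error of the higher count.

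Vgll2 and Eya2, cofactors on the same list, were also higher. Vgll2, a muscle-enriched partner of TEAD factors, was at 41.6, 157, 29.4, 140.5 and 100.4 CPM, against 2 counts in MEFs (0.0747 CPM). Eya2, a transcriptional coactivator of muscle precursors, was at 13.9, 13.7, 31.4, 38.1 and 34.3 CPM, against 2.84 CPM. Both were highest outside ASC, Vgll2 in QSC of mouse 3 and Eya2 in Pax7-positive iMPCs. Mef2c, a partner of the MyoD family in differentiation, was at 5.2, 1.54, 621, 14.99 and 163 CPM, against 10.8 CPM, so both QSC libraries lay below fibroblasts. The homeobox factor Pitx3, expressed in skeletal muscle as well as in lens and midbrain, was at 17.1, 20.7, 70.3, 155.7 and 58.0 CPM with 0 counts in MEFs. It was the only one of 54 mesenchymal and limb factors to be higher in all 5.

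Satellite cell identity genes met the rule upward in 12 of 28 cases and downward in 0, with a median of 3.12. Pax7 (ENSMUSG00000028736) was at 34.5, 159.7, 19.8, 37.8 and 6.25 CPM and had 0 counts in MEFs. The reporter-negative iMPCs were lowest and the reporter-positive fraction stood beside QSC of mouse 1. Pax7 was the basis of the iMPC sort and is named in the ASC title, so its level there was set in part by how the cells were collected. Lbx1, a homeobox gene of limb muscle precursors, was at 19.3, 21.5, 40.7, 0.836 and 0.405 CPM with 0 counts in MEFs. The iMPC fractions were near the floor: the Pax7-negative value was 3.61-fold above MEFs with the 0 set to 3 counts. Its exact 95% interval starts at 2.51. Sox8, a SoxE factor found in satellite cells, was at 17.4, 18.6, 19.1, 96.7 and 46.8 CPM, against 1.57 CPM, with both iMPC fractions above the satellite cells. Pax3, the paralog of Pax7, did not meet the rule: it was at 20.4, 55.7 and 6.16 CPM in satellite cells and at 0.0643 and 0.203 CPM in iMPCs, against 0.187 CPM in MEFs.

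Surface proteins of satellite cells were next. Cdh15, M-cadherin, which joins satellite cells to the fibre (ENSMUSG00000031962), was at 313, 555, 427, 962 and 487 CPM, against 0.859 CPM. Its lowest library, QSC of mouse 1, was 364-fold above MEFs (243 to 575). Fgfr4, a fibroblast growth factor receptor of muscle progenitors, was at 323, 479, 44.9, 379 and 112 CPM, against 0.299 CPM, and ASC was its lowest library. Itga7, a laminin receptor chain, was at 435, 238, 651, 723 and 272 CPM, against 18.5 CPM. Megf10, a receptor of satellite cells, was at 75.9, 115, 355, 65.0 and 61.8 CPM, against 11.5 CPM. That no library of these 4 genes overlapped MEFs follows from the rule that chose them. Cxcr4, the chemokine receptor used by migrating muscle precursors, was at 7.53, 12.4, 17.0, 9.75 and 2.13 CPM, against 0.224 CPM. Other surface genes of the list split the myogenic side: Calcr, the calcitonin receptor, was at 55.9 and 151 CPM in QSC and at most 0.257 CPM in the 3 cultured libraries, against 0.149 CPM in MEFs, and Vcam1 was at 1032, 489.9, 75.7, 168 and 105 CPM, against 148 CPM.

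The Notch pathway, which keeps satellite cells undifferentiated, had 4 of 17 genes higher and 0 lower, with a median of 0.19. The ligand Dll1 was at 18.1, 16.4, 87.0, 58.8 and 45.3 CPM, against 0.149 CPM. Heyl, a transcriptional target of the pathway, was at 149, 588, 20.03, 289 and 107 CPM, against 0.523 CPM. Hey1, a related target, was at 152, 80.2, 8.66, 103 and 41.0 CPM, against 1.91 CPM. The ligand and the targets were ordered differently: ASC was the highest library for Dll1 and the lowest for Heyl and Hey1. Nrarp, a feedback inhibitor, was at 9.58, 2.62, 4.39, 13.8 and 3.41 CPM, against 0.262 CPM. Of the receptors, Notch3 was at 118, 310, 51.6, 212 and 92.4 CPM, against 23.0 CPM, and Notch1 at 74.7, 83.0, 37.5, 117 and 53.8 CPM, against 29.9 CPM. ASC was the nearest library to MEFs for both. It alone held Notch3 outside the set, whereas all 5 libraries were under 4-fold for Notch1.

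**Figure D2:**
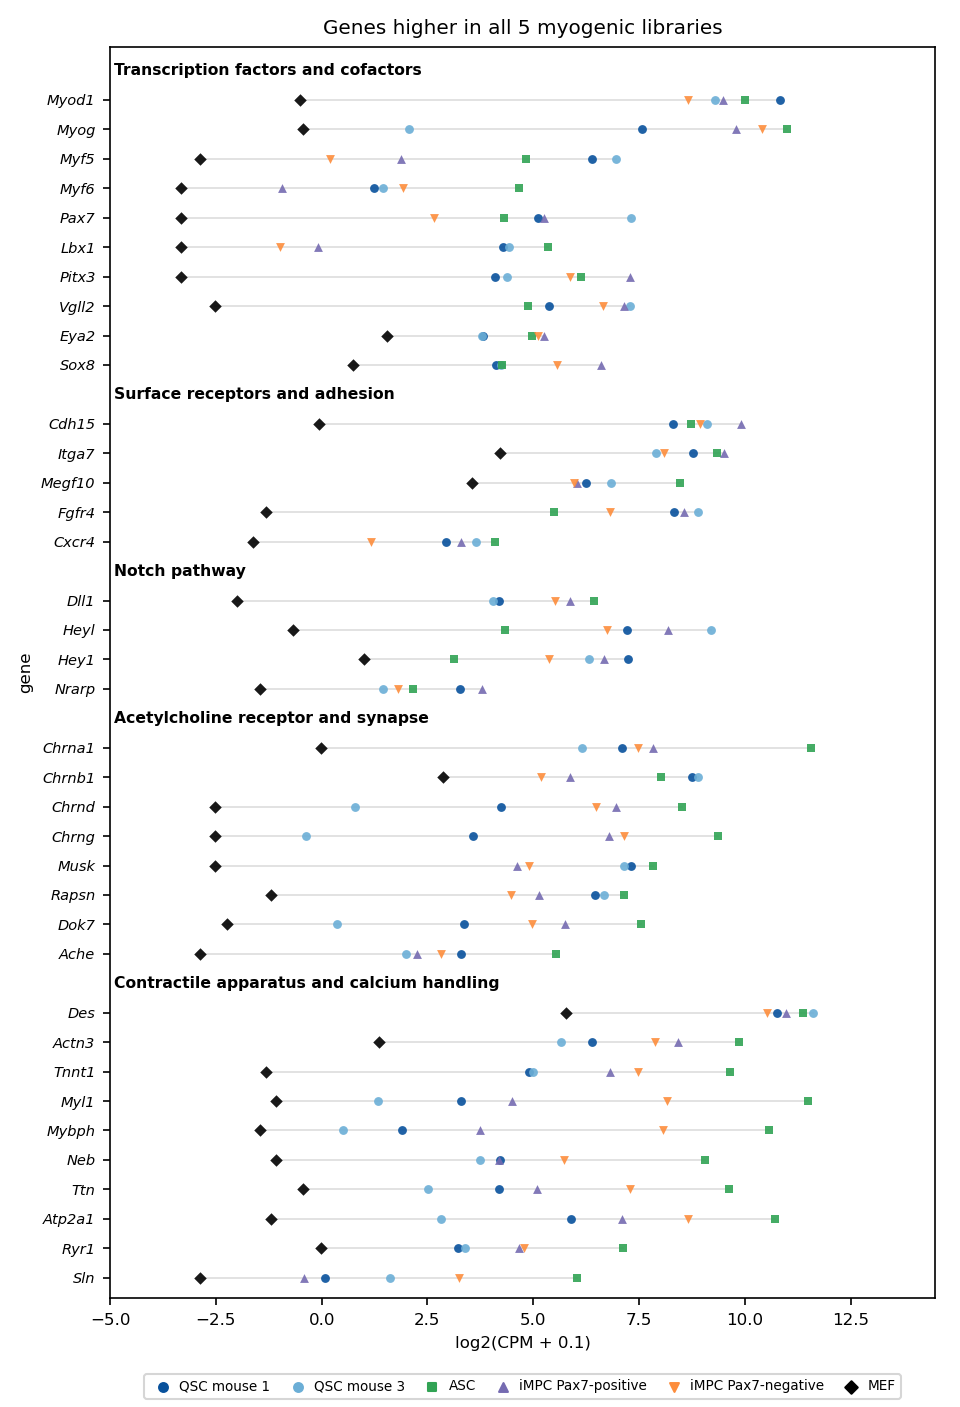
Level of genes that were higher in all 5 myogenic libraries, as log2(CPM + 0.1) on the horizontal axis, with 1 point per library and genes grouped by role on the vertical axis. By the rule, the black MEF point is the leftmost in every row. Most contractile genes are spread widely, with ASC highest.

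The neuromuscular synapse gave the largest share upward of the 27 lists examined, 8 of 16 genes higher and 0 lower, with a median of 4.19. Chrna1, the alpha subunit of the muscle acetylcholine receptor (ENSMUSG00000027107), was at 138, 70.6, 3043, 226 and 177 CPM, against 0.897 CPM. Its lowest library, QSC of mouse 3, was 78.7-fold above MEFs (52.7 to 123). Chrnb1, the beta subunit, was at 433, 476, 259, 58.3 and 36.0 CPM, against 7.17 CPM. Here the quiescent cells were highest, the reverse of the other subunits. Chrnd, the delta subunit, was at 18.8, 1.63, 368, 124 and 89.3 CPM, against 2 counts (0.0747 CPM). Chrng, the gamma subunit of the fetal receptor (ENSMUSG00000026253), was at 11.9, 0.678, 655, 111 and 142 CPM, against 2 counts. QSC of mouse 3 had 15 counts of Chrng, and its log2 difference from MEFs, 2.31, was 1.86 under library size scaling, below the 4-fold line.

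The proteins that cluster the receptor were present as well. Musk, the receptor kinase that organises the synapse (ENSMUSG00000057280), was at 159.9, 140.5, 227, 24.4 and 29.6 CPM, against 2 counts in MEFs. Rapsn, which encodes rapsyn, the anchor of the receptor, was at 87.7, 103, 140.5, 35.3 and 22.0 CPM, against 0.336 CPM. For both genes all 3 satellite cell libraries stood above both iMPC fractions. Dok7, the cytoplasmic activator of MuSK, was at 10.2, 1.18, 186, 53.7 and 31.4 CPM, against 0.112 CPM. Ache, acetylcholinesterase, was at 9.63, 3.89, 46.2, 4.66 and 6.92 CPM, against 1 count. In the QSC libraries the 8 synapse genes ranged from 0.678 CPM for Chrng to 476 CPM for Chrnb1.

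Promoter sequence was not used to choose the genes. RefSeq promoter windows on GRCm38.p6, 250 bases before to 50 after the annotated start, were at hand for 110 higher and 112 lower genes, of which 86 and 90 had exactly 1 start. The E-box CAGCTG, which reads alike on both strands and is a preferred site of the MyoD family, was found in 26 of 86 higher windows (30.2%) and 12 of 90 lower ones (13.3%). It was in 14.4% of 7082 windows of genes at 5 CPM and in 16.1% of all 22862 windows. The general E-box CANNTG, which includes CAGCTG, was in 75.6% of higher, 66.7% of lower and 61.2% of expressed windows. CACCTG or its reverse CAGGTG was in 26.7%, 24.4% and 15.4%, the TEAD motif CATTCC or GGAATG in 18.6%, 15.6% and 11.6%, and TATAAA or TTTATA in 15.1%, 16.7% and 6.96%. Over all windows the shares were 72.4% for CANNTG, 20.02% for CACCTG or CAGGTG, 14.6% for CATTCC or GGAATG and 14.8% for TATAAA or TTTATA. Against those, the lower genes were below for CANNTG, and the higher genes were close for CANNTG and TATAAA or TTTATA. A MEF2 site was in 2 windows of each set and a CArG box in 1 and 2. A match is a description of the letters, not a bound site.

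Windows of 5 genes were picked because they hold CAGCTG, to show where it lies: 3 synapse genes, the intermediate filament gene Des and the regulator Pitx3. Most higher windows lack it, among them those of Cdh15, Vgll2, Pax7, Fgfr4, Sgca, Tnnt1, Myog and Chrnb1, with 0 matches each. Capitals mark CAGCTG, and each runs 5′ to 3′ on the gene's strand, with the start after the first 250 bases. The Chrna1 window is chr2:73580289-73580588 on the minus strand and holds CAGCTG from 92 and from 44 bases before the start. The Chrng window is chr1:87205561-87205860 on the plus strand, with matches from 155 and 132 bases before. The Musk window is chr4:58285712-58286011 on the plus strand, with 1 match from 68 bases before. The Des window is chr1:75360042-75360341 on the plus strand, with 1 match from 36 bases before. The Pitx3 window is chr19:46148276-46148575 on the minus strand, with 1 match from 180 bases before.
Chrna1: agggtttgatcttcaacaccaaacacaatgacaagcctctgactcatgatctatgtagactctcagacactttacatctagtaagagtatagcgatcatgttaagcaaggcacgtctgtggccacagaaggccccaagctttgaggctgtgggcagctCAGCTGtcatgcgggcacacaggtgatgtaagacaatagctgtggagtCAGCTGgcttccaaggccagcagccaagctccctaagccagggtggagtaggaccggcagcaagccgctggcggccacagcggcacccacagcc
Chrng: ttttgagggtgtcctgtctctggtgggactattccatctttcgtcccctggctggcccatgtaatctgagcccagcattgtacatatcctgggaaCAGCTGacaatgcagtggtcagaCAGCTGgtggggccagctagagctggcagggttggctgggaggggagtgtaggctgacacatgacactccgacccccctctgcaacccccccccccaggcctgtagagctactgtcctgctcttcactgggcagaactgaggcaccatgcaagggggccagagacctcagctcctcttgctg
Musk: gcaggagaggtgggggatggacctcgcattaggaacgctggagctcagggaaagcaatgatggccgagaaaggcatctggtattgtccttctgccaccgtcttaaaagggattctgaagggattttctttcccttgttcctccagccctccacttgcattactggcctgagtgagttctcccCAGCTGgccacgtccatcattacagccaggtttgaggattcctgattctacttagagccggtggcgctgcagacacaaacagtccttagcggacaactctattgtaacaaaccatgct
Des: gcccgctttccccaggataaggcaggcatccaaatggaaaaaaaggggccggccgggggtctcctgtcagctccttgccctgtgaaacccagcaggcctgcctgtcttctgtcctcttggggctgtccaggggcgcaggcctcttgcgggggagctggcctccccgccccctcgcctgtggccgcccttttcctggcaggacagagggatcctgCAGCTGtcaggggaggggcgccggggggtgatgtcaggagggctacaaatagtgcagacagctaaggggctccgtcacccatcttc
Pitx3: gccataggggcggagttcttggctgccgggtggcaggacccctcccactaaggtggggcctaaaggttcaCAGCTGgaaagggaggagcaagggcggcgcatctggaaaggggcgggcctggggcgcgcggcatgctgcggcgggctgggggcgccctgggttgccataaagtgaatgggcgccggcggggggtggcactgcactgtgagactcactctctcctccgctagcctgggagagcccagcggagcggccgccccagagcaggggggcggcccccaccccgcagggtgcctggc

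Contractile genes were the most numerous group, with 19 of 55 sarcomere genes higher and 0 lower and a median of 4.73. Des, desmin, the intermediate filament of muscle (ENSMUSG00000026208), was at 1746, 3146, 2665, 1999 and 1469.9 CPM, against 54.5 CPM. Its lowest library, Pax7-negative iMPCs, was 26.9-fold above MEFs (25.6 to 28.4), and the 5 libraries spanned 1.098 log2 units. Actn3, a Z-disc actinin of fast fibres, was at 84.0, 50.5, 938, 344 and 234 CPM, against 2.47 CPM. Tnnt1, slow troponin T, was at 29.9, 31.8, 801, 113 and 179 CPM, against 0.299 CPM. Mybpc1, slow myosin-binding protein C, was at 35.8, 73.6, 333, 9.23 and 43.8 CPM, against 0.187 CPM. Neb, the thin filament ruler nebulin, was at 18.5, 13.3, 536, 18.0 and 52.9 CPM, against 0.374 CPM, and Klhl40, which stabilises nebulin, was at 20.7, 4.52, 118, 13.5 and 45.9 CPM with 0 counts in MEFs. In each of these genes other than Des, ASC was the highest library. Des was highest in QSC of mouse 3.

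Other sarcomere genes were lowest in QSC of mouse 3, and some met the rule there by a narrow margin. Myl1, a fast myosin light chain, was at 9.63, 2.4, 2867, 22.5 and 287 CPM, against 0.374 CPM. Mybph, myosin-binding protein H, was at 3.62, 1.31, 1512, 13.3 and 267 CPM, against 0.262 CPM. These genes had the widest spread of the set, 10.18 and 10.09 log2 units from the lowest to the highest myogenic library. Under library size scaling the log2 difference of QSC of mouse 3 from MEFs was 1.91 for Myl1 and 1.51 for Mybph, below the line. Ttn, titin, was at 18.1, 5.61, 786, 33.7 and 156 CPM, against 0.635 CPM. Tnnt3, fast troponin T, was at 10.8, 4.75, 1217, 32.5 and 152 CPM, against 1.01 CPM. Tnnc2, fast troponin C, was at 8.82, 2.8, 1013, 16.2 and 264 CPM, against 0.112 CPM. The order was the same in these 5 genes: ASC was highest, Pax7-negative iMPCs came next, and QSC of mouse 3 was lowest.

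Genes of excitation-contraction coupling, which link the membrane signal to calcium release, were higher in 7 of 24 cases and lower in 0, with a median log2 difference of 3.997. Atp2a1, the calcium pump of the sarcoplasmic reticulum, was at 59.6, 7.01, 1688, 136 and 400.4 CPM, against 0.336 CPM. Ryr1, the calcium release channel, was at 9.2, 10.3, 139, 25.1 and 27.3 CPM, against 0.897 CPM. Jsrp1, a protein of the calcium release complex, was at 51.5, 52.2, 96.8, 13.2 and 17.6 CPM, against 0.149 CPM. ASC was highest for these 3 genes, but Jsrp1 was higher in both QSC libraries than in Pax7-negative iMPCs, unlike Atp2a1 and Ryr1. Sln, sarcolipin, a regulator of the pump, was at 0.953, 2.94, 64.9, 0.643 and 9.35 CPM, against 1 count. Its Pax7-positive iMPC value rests on few reads, with a counting interval for the ratio to MEFs of 2.75 to 714.

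The dystrophin complex and muscle membrane list had 6 of 27 genes higher and 0 lower, with a median of 0.98. Sgca, alpha-sarcoglycan, was at 61.8, 66.4, 134, 35.2 and 18.8 CPM, against 2 counts in MEFs. Popdc3, a membrane protein of muscle, was at 56.5, 35.9, 132, 99.5 and 63.5 CPM, against 0.374 CPM. Both were highest in ASC. Muscle metabolism had 4 of 23 higher and 0 lower, with a median of 1.79, with 8 higher without Pax7-positive iMPCs and 1 lower without ASC. Pygm, muscle glycogen phosphorylase, was at 83.1, 45.6, 336, 57.6 and 73.4 CPM, against 0.486 CPM. Ckm, muscle creatine kinase, was at 5.62, 1.49, 51.1, 0.675 and 12.1 CPM, against 2 counts. The Pax7-positive iMPCs were lowest for Ckm, with an interval of 2.21 to 79.5 for the ratio to MEFs. Of 20 fusion and adhesion genes, 2 were higher, Cdh15 and Itga7, and 1 was lower, Dock5. Without QSC of mouse 3 the higher count was 5. Myomaker, Tmem8c in the files, was at 30.03, 0.226, 1120, 61.0 and 253 CPM, against 0.187 CPM, so that library alone fell short.

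**Figure D3:**
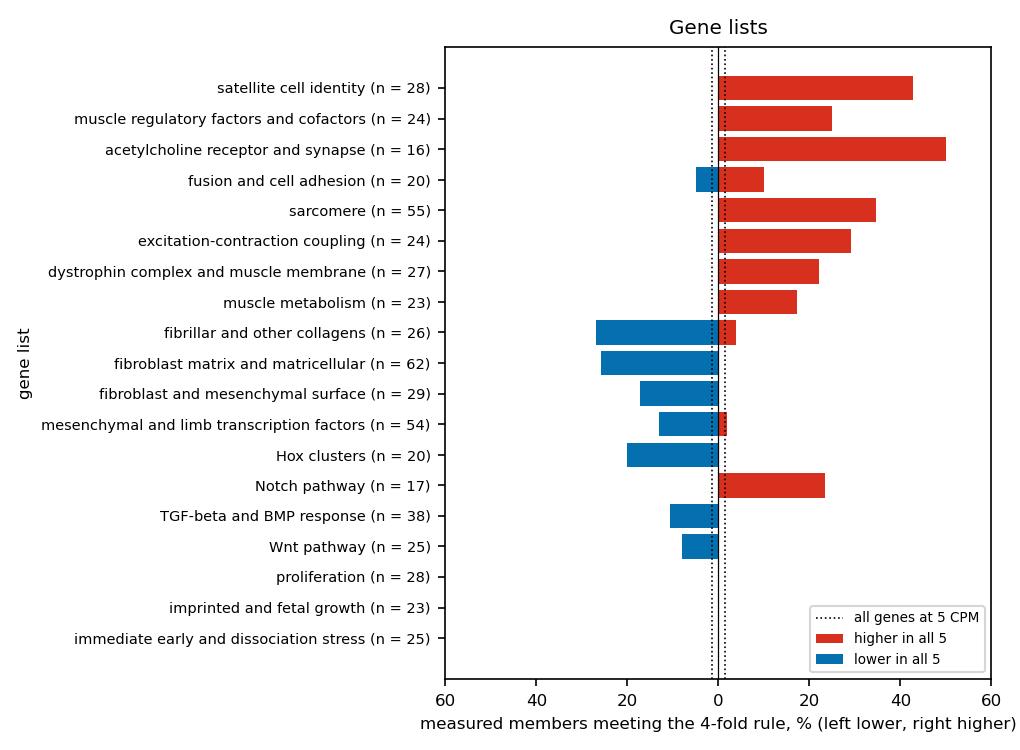
Share of measured genes in 19 lists that were at least 4-fold lower (left, blue) or higher (right, red) than MEFs in all 5 myogenic libraries, in percent, with the number of genes measured beside each list name. Dotted lines mark the shares over all genes at 5 CPM, 1.37% lower and 1.41% higher. Muscle lists extend to the right, with 1 lower gene in the fusion list, and matrix, Hox and TGF-beta lists extend to the left.

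The genes with the highest level per length were not all muscle structural genes. Mean RPKM on the myogenic side was 1916 for Gal, the neuropeptide galanin, 837 for Myl1, 732 for Des, 693 for Myog and 659 for Cd82, a tetraspanin. Gal was at 7509, 1331, 70.5, 189 and 103 CPM, against 2.2 CPM. Cd82 was at 3094, 2501, 233, 655 and 361 CPM, against 21.8 CPM. Both were highest in the quiescent cells and lowest in ASC, and every library was at least 10.7-fold above MEFs. Other genes were even. Purb, a single-stranded DNA-binding repressor of muscle genes, was at 344, 285, 329, 368 and 288 CPM, against 69.8 CPM, and spanned 0.37 log2 units. It lay just inside the line at a log2 difference of 2.03 in its nearest library, and at 1.44 under library size scaling and just short of 2.00 with DESeq2-style size factors. Sik1, a salt-inducible kinase, was at 157, 177, 124, 103 and 111 CPM, against 15.1 CPM.

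Among markers of other cell types, 2 genes appeared in the higher set. The endothelial gene Vwf was at 16.4, 1.76, 2.11, 2.7 and 2.16 CPM, against 1 count in MEFs. It passed the 5 CPM mean through QSC of mouse 1 and dropped out without that library, where 1 endothelial marker was lower, and under library size scaling. The other 10 endothelial markers did not meet the rule, and the list summed to 204, 46.2, 4.05, 6.79 and 35.3 CPM, against 62.8 CPM in MEFs. Cdh5 and Cldn5 were at 0 in MEFs. The immune marker Laptm5 was at 3.96, 3.03, 19.3, 18.6 and 36.3 CPM, against 0.672 CPM, and was lost under library size scaling. Its list summed to 220, 82.5, 24.1, 20.5 and 42.4 CPM, against 12.9 CPM, and the defining marker Ptprc was at most 1.62 CPM in any library. In QSC most of the sum thus came from list genes other than Laptm5 and Ptprc, which did not meet the rule. Erythroid, Schwann, adipocyte and epithelial lists, with 4, 2, 4 and 2 measured genes, had 0 in either direction, but their levels differed between libraries. Erythroid markers summed to 1299 CPM in QSC of mouse 1 and 20.1 CPM in QSC of mouse 3, and to at most 2.95 CPM in the other 4 libraries. Adipocyte markers summed to 518, 410.3, 17.9, 425 and 473 CPM, against 28.3 CPM in MEFs, most of it Lpl, lipoprotein lipase, at 298, 356, 12.9, 418 and 442 CPM, against 11.5 CPM. The defining adipocyte markers Adipoq and Plin1 were at 0 in 5 libraries and at 0.135 and 0.0675 CPM in Pax7-negative iMPCs. Schwann markers summed to 72.4, 30.7, 12.3, 7.56 and 32.9 CPM, against 4.48 CPM, and epithelial markers to 2.96, 0.362, 14.0, 1.77 and 63.0 CPM, against 93.3 CPM. The part of other cells in these results was not tested.

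Turning to the genes lower in all myogenic libraries, the collagen list met the rule downward in 7 of 26 cases and upward in 1. Its median was -2.70. Col1a1, the main chain of type I collagen (ENSMUSG00000001506), was at 31.2, 15.6, 4.31, 66.5 and 1377 CPM, against 8921 CPM in MEFs. Its partner chain Col1a2 was at 71.5, 19.2, 15.7, 229.7 and 835 CPM, against 3863 CPM. Pax7-negative iMPCs were the highest myogenic library for both and were 6.48-fold (6.41 to 6.55) and 4.62-fold (4.56 to 4.69) below MEFs. Col8a1, a short-chain network collagen, was more even, at 59.7, 59.0, 62.7, 22.6 and 50.7 CPM, against 563 CPM. Col4a5, a basement membrane chain, was at 3.86, 7.37, 5.73, 2.64 and 4.29 CPM, against 73.6 CPM. By the rule that chose these genes, no myogenic library reached MEFs. Pax7-negative iMPCs were also the library with Pdgfra and Thy1 above MEFs, and the part of fibroblast-like cells in its collagen levels was not tested. Over all genes, 282 were lower without Pax7-negative iMPCs, against 159, and 215 were higher without ASC, against 164. Without Pax7-negative iMPCs 12 collagens of the list were lower, and without ASC 3 were higher. Col3a1, at 694, 254, 607, 1661 and 4835 CPM, was not, with 2449 CPM in MEFs and a higher level in that library. The collagen of the list in the other direction, Col26a1, was at 21.3, 16.6, 24.6, 363 and 189.7 CPM, against 0.336 CPM, with both iMPC fractions highest. Col19a1, a collagen on no list, was higher too, at 52.4, 64.4, 119, 51.8 and 36.8 CPM, against 0.971 CPM. It was picked after its values were seen.

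The fibroblast matrix list had the most lower genes, 16 of 62 with 0 higher and a median of -2.70, and 42 of the 62 were below MEFs in all 5 libraries by any amount. Thbs1, thrombospondin 1, was at 67.4, 107, 705, 49.6 and 376 CPM, against 8144 CPM. Fn1, fibronectin, was at 10.5, 8.18, 404, 215 and 667 CPM, against 3003 CPM. In both, ASC and Pax7-negative iMPCs were the highest myogenic libraries. The elastic fibre genes formed a run: Fbln5, which organises elastin, was at 20.8, 3.71, 14.0, 1.77 and 10.5 CPM, against 630.4 CPM. Fbln2, a relative, was at 252, 80.0, 6.33, 37.2 and 171 CPM, against 2195 CPM. Eln, elastin, was at 1.95, 0.949, 0.129, 0.901 and 3.11 CPM, against 41.5 CPM. Lox, the enzyme that crosslinks collagen and elastin, was at 59.9, 43.7, 18.3, 28.2 and 123 CPM, against 1460.4 CPM. Its relatives Loxl3 and Loxl4 and the fibrillin Fbn2 met the rule too. Postn, periostin, was at 6.24, 4.29, 0.861, 6.11 and 102 CPM, against 427 CPM, and Bgn, biglycan, at 185, 199, 213, 81.7 and 302 CPM, against 1389.8 CPM. Pax7-negative iMPCs were the nearest library for Postn and Bgn, at 4.20-fold (4.03 to 4.37) and 4.61-fold (4.50 to 4.71).

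Surface and secreted signals followed. Of 29 fibroblast surface genes, 5 were lower and 0 higher, with a median of -2.51, and 9 were lower without Pax7-negative iMPCs. Il1rl1, the receptor of interleukin 33, was at 1.91, 0.136, 0.732, 4.25 and 138 CPM, against 648 CPM. Itga11, a collagen receptor chain, was at 1.86, 0.723, 0.818, 0.45 and 2.87 CPM, against 58.3 CPM. The first differed widely among the myogenic libraries and the second did not. The summed level of this list was 2453, 1388, 1376 and 1634 CPM in the first 4 libraries, 2919 CPM in Pax7-negative iMPCs and 5829 CPM in MEFs. Of 25 Wnt pathway genes, 2 were lower, the R-spondins Rspo2 and Rspo3, which amplify Wnt signals, and 0 were higher, with a median of -1.58. Rspo2 had 0 counts in the 3 satellite cell libraries and was at 0.0322 and 0.777 CPM in iMPCs, against 29.0 CPM in MEFs. Without Pax7-negative iMPCs 10 Wnt genes were lower and 1 was higher. Of 38 TGF-beta and BMP genes, 4 were lower and 0 higher, with a median of -1.08. Inhba, which encodes activin A, was at 8.77, 2.67, 3.06, 1.61 and 29.5 CPM, against 353 CPM. Without QSC of mouse 3, 1 gene of that list was higher.

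**Figure D4:**
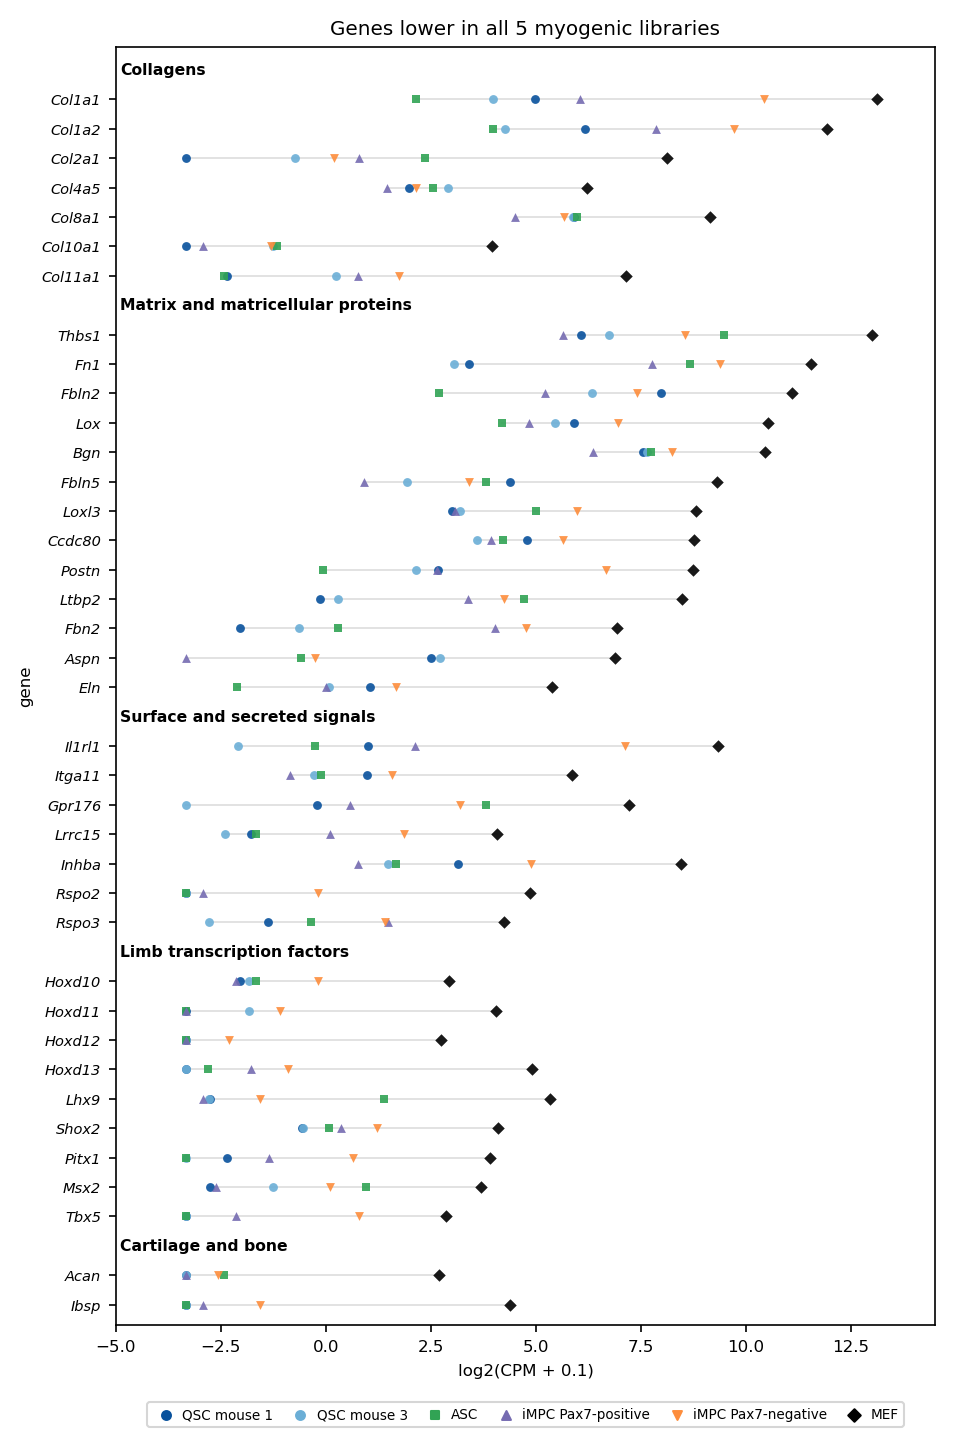
Level of genes that were lower in all 5 myogenic libraries, as log2(CPM + 0.1) on the horizontal axis, with 1 point per library and genes grouped by role on the vertical axis. By the rule, the black MEF point is the rightmost in every row. Limb and cartilage genes lie near the left edge in the myogenic libraries.

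Several limb patterning genes were near 0 in the myogenic libraries. Of 20 Hox genes, 4 were lower and 0 higher, with a median of -1.61, and the 4 were Hoxd10, Hoxd11, Hoxd12 and Hoxd13, which are neighbours at the end of the HoxD cluster and act in the distal limb. Hoxd13 had 0 counts in both QSC libraries and was at 0.0431, 0.193 and 0.439 CPM in the others, against 29.8 CPM. Hoxd12 had 3 counts in Pax7-negative iMPCs and 0 in the other 4, against 6.58 CPM. Hoxd11 was at 0.371 CPM or less, against 16.4 CPM, and Hoxd10 at 0.777 CPM or less, against 7.58 CPM. Of 54 mesenchymal and limb factors, 7 were lower, with a median of -1.23, and without Pax7-negative iMPCs 11 were lower and 2 higher. Tbx5, the T-box factor of the forelimb, had 0 counts in satellite cells and was at 0.129 and 1.62 CPM in iMPCs, against 7.14 CPM. Pitx1, the homeobox factor of the hindlimb, was at 0.0953, 0, 0, 0.289 and 1.45 CPM, against 14.8 CPM. The MEF library thus held transcripts of both factors. Lhx9, a LIM homeobox factor of limb mesenchyme, was at 0.0477, 0.0452, 2.5, 0.0322 and 0.236 CPM, against 40.4 CPM.

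Mesenchymal factors used more widely did not meet the rule. Twist1, a repressor of myogenesis, was at 1.0, 1.76, 1.46, 11.7 and 36.4 CPM, against 61.5 CPM, and Prrx1, a limb mesenchyme factor, was at 16.8, 20.1, 72.4, 161 and 254 CPM, against 308 CPM. Pax7-negative iMPCs came within 4-fold of MEFs for Twist1, and both iMPC fractions did for Prrx1. Without Pax7-negative iMPCs, Twist1 met the rule, at a nearest log2 difference of -2.39.

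The MEF library also carried cartilage and bone transcripts. Of 8 measured markers, 3 were lower and 0 higher, with a median of -3.06. Col2a1, the collagen of cartilage, was at 0, 0.497, 5.0, 1.64 and 1.05 CPM, against 277 CPM. Acan, aggrecan, had 2 counts in ASC, 2 in Pax7-negative iMPCs and 0 in the others, against 6.31 CPM. Ibsp, bone sialoprotein, had 1 count in Pax7-positive and 7 in Pax7-negative iMPCs and 0 in satellite cells, against 20.7 CPM. Col10a1, of hypertrophic cartilage, and Col11a1, of cartilage fibrils, met the rule as well, at 15.5 and 142 CPM in MEFs. The list did not move as a whole: summed, it was 511, 643 and 8900 CPM in satellite cells, 377 and 2605 CPM in iMPCs and 1916 CPM in MEFs, of which Spp1, osteopontin, was 42.7, 7.5, 8763, 287 and 2518 CPM, against 1499 CPM in MEFs. Sox9 was higher in QSC than in MEFs (374 and 379 against 86.5 CPM), and Bglap was at 0 in all 6 libraries. What share of the lower genes came from cartilage or bone cells among the MEFs was not tested. Pericyte and smooth muscle markers had 2 of 10 lower and 0 higher, and 1 higher without QSC of mouse 3, without ASC or with DESeq2-style size factors. Cnn1, calponin, was at 5.43, 2.94, 0.947, 1.09 and 19.5 CPM, against 509 CPM, and Cspg4, the NG2 proteoglycan, at 7.15, 5.33, 34.5, 2.48 and 1.11 CPM, against 160.1 CPM.

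Lists not tied to lineage gave 0 genes in either direction: 28 proliferation, 23 imprinted and fetal growth, and 25 immediate early and dissociation stress genes. Their median log2 differences were -1.84, -0.119 and 1.402. At background shares of 1.41% higher and 1.37% lower, lists of this length can give 0 by their size alone. The 0 counts therefore do not set these lists apart from other genes. Mki67, a marker of cycling cells, was at 38.4, 0.316, 64.6, 94.7 and 40.1 CPM, against 98.1 CPM. Fibroblasts and 4 myogenic libraries thus lay within 4-fold. QSC of mouse 1, at 38.4 CPM, was near Pax7-negative iMPCs and far above QSC of mouse 3. Myog also differed between the QSC libraries, at 189 CPM in mouse 1 and 4.07 CPM in mouse 3. Quiescent is the name in the labels, and the state of these cells was not tested. Stress genes summed to 81923 and 97282 CPM in QSC, between 1456 and 2385 CPM in the cultured myogenic libraries and 2447 CPM in MEFs, and so differed within the myogenic side rather than between the sides. Of the imprinted list, 1 gene met the rule upward when either QSC library was left out or with DESeq2-style size factors.

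The libraries contributed unequally. For the higher genes, the myogenic library nearest to MEFs was QSC of mouse 3 in 49 cases, Pax7-positive iMPCs in 34, Pax7-negative iMPCs in 33, ASC in 25 and QSC of mouse 1 in 23. ASC was the highest library in 80 of 164. Median log2 differences, drawn in the plot of differences by library, were 5.196, 4.87, 5.93, 4.85 and 4.82. The median range of the higher genes among the 5 libraries was 3.41 log2 units, beside 1.93 over all genes at 5 CPM. Both QSC libraries were above all 3 cultured libraries for 30 higher genes and below all 3 for 47. For the lower genes, Pax7-negative iMPCs were nearest to MEFs in 87 cases, ASC in 39, QSC of mouse 1 in 19, QSC of mouse 3 in 11 and Pax7-positive iMPCs in 3. Median log2 differences were -5.36, -5.78, -4.61, -5.24 and -3.21, and 78 lower genes were at least 4-fold higher in Pax7-negative than in Pax7-positive iMPCs, against 1 the other way. Left out, that library decided the count most: 282 genes were then lower in the other 4, against 159. Leaving out others changed the counts by less than 1.5 times. How many of all genes at 5 CPM follow the same orders among libraries, or differ 4-fold between the iMPC fractions, was not counted. These counts may therefore not be particular to the set.

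**Figure D5:**
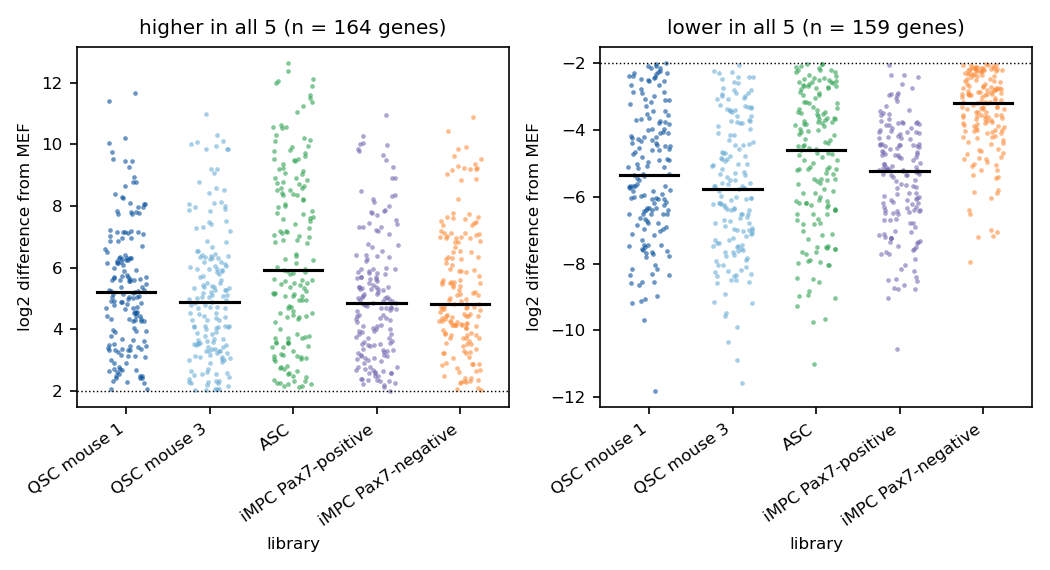
Log2 difference from MEF of the 164 higher genes (left) and the 159 lower genes (right) in each myogenic library, with 1 point per gene, a bar at the median and a dotted line at 4-fold. Medians of the higher genes lie between 4.82 and 5.93, and among the lower genes Pax7-negative iMPCs, at -3.21, lie closest to MEFs.

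Taken alone against MEFs, each library had many more genes past 4-fold than the shared set. A larger number follows from the rule, which asks for all 5 libraries at once. With 5 CPM in the library or in MEFs, 12.9% were higher and 15.4% lower in QSC of mouse 1, and 13.8% and 16.9% in QSC of mouse 3. The shares were 7.11% and 6.15% in ASC, 4.97% and 8.71% in Pax7-positive iMPCs, and 7.08% and 3.56% in Pax7-negative iMPCs. The fewest were 554 genes higher in Pax7-positive iMPCs and 407 lower in Pax7-negative iMPCs. At the line itself, the higher genes just inside were Ampd3, Purb and Mybph, with log2 differences of 2.01, 2.03 and 2.03 in the nearest library, and those just outside were Zim1, Palmd and Neurl1a, at 1.99, 1.98 and 1.98. The lower genes just inside were Fam84b, Ptgs2 and Tbc1d2, at -2.02, -2.03 and -2.04, and just outside were Cpa6, Itga5 and Nrp1, at -1.94, -1.93 and -1.92. For 49 higher and 40 lower genes the counting interval of the nearest library reached under 4-fold. Of the 164 higher genes, 86 were at 5 CPM or more in every myogenic library.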

How the data were processed

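Poly(A)-selected RNA from 6 samples was made into libraries with a directional kit, per the labels' protocols. The authors deposited raw read counts per gene and RPKM values for 38924 genes. STAR 2.3.0, Picard 1.100, HTSeq 0.6.0, edgeR and the mm9 build are named in the submitters' processing notes, with no order stated. Which gene models were used, and if reads were counted by strand, is not given in the sources used here, so overlapping and antisense genes are uncertain. The deposited RPKM served for levels per length and for 1 alternative. No column was left unmatched to a sample (0 columns).

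Counts were scaled with TMM in edgeR 4.0.16 (R 4.3.3, limma 3.58.1) and turned into log2 CPM with a prior count of 2. A gene belonged to the set when all 5 myogenic libraries lay on 1 side of MEFs by 4-fold, with a mean of 5 CPM on the higher side. The 2 sides were also compared with edgeR's quasi-likelihood test over 17116 genes, after a test of the procedure on simulated data. Samples of QSC are 2 mice and the other groups have 1 library, so group spread is known for QSC only, and nothing says whether the cultured libraries were separate cultures. Counting intervals are exact (Clopper-Pearson, 95%), PCR reads carry no molecular identifiers, and a 0 was bounded at 3 counts. Alternatives were other scalings, prior counts, minimum levels, RPKM, DESeq2 1.42.0, a contrast of the 4 myogenic group means, and leaving out each library.

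The genes, the 27 lists (730 entries, of which 729 matched) and the tests were chosen with earlier results of these data known. Named genes were, in each direction, the 15 with the largest difference in the nearest library, members on a list, a fixed set of markers, the 3 on each side of the line, the most and least even, and the 5 with the highest RPKM. Others are said to be chosen after their values were seen. Mef2c, Pax3, Calcr, Vcam1, Notch1, Notch3, Tmem8c, Col3a1, Spp1, Sox9, Bglap, Cdh5, Cldn5 and Ptprc are list genes outside the set that were chosen after their values were seen. Promoters and gene order came from RefSeq on GRCm38.p6, and no mm9 coordinates were used. Some genes are not reported here.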

Additional observations from a re-analysis of the deposited data

How the results depend on the processing

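No paired analysis was possible because the groups share fewer than 2 replicate numbers. Leaving out each library in turn gave 173 to 215 higher and 158 to 282 lower genes, against 164 and 159 with all 5, and edgeR's quasi-likelihood test called 0 to 0 in both directions. The 282 lower genes came without Pax7-negative iMPCs. Fewer libraries make the rule easier to meet by its construction. Asking for 5 CPM in every library of the higher side left 86 higher genes, also by construction. DESeq2 called 217 higher and 41 lower genes, and a contrast of the 4 myogenic group means in edgeR called 419 higher and 708 lower, where edgeR with the 5 libraries as 1 side called 0 and 0; the cause was not tested for DESeq2. The contrast takes its error from the QSC pair alone (1 residual degree of freedom, 16.3 prior ones).

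Other settings kept both counts within 1.5 times: library size scaling 140 higher and 173 lower (137 and 156 shared with the set), DESeq2-style size factors 166 and 156, a prior count of 0.5 180 and 159, a prior count of 5 139 and 159, a minimum of 1 CPM 200 and 224, and deposited RPKM 115 and 154. Library size scaling shifted the median of all genes by -0.24 and RPKM by -0.23 on the log2 scale. Under library size scaling Myog, Purb, Mybph, Myl1, Chrng and Ptgs2 came within 4-fold (1.98, 1.44, 1.51, 1.91, 1.86 and -1.95). With DESeq2-style size factors Purb (just short of 2.00) and Fam84b (-1.96) did. Values under 1 CPM rest on few reads, and depth limits them most.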

Other observations

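Of the genes that met the rule, 100 higher and 111 lower ones were on no list. The genes described here were chosen after their values were seen. Among the lower genes, Gjb2, a gap junction protein, was at 0.715, 0.769, 0, 0 and 0.203 CPM, against 41.1 CPM in MEFs, so no myogenic library came near. The type IX collagen chains Col9a1, Col9a2 and Col9a3, which coat cartilage fibrils, were lower as well. Among the higher genes, Chd7, a chromatin remodeller, was at 173, 353.6, 56.2, 65.3 and 61.2 CPM, against 1.42 CPM. Rbm24, an RNA-binding protein of muscle splicing, was at 27.9, 21.0, 391, 385 and 254 CPM, against 1.76 CPM. Chd7 was highest in QSC and Rbm24 in the 3 cultured libraries.

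In RefSeq gene order on GRCm38.p6, 314 of the 323 genes could be placed, and 16 pairs of them were immediate neighbours. In 14 pairs both genes lay on the same side of MEFs. No share over all neighbouring genes was counted, so the pairs are a description only. The 6 pairs higher in muscle cells included Chrnd and Chrng, and Myf5 and Myf6, and the 8 lower pairs included 3 along the HoxD cluster. The 2 pairs that pointed in opposite directions were Col9a1 with Col19a1, and Col1a1 with Sgca. Col1a1 was lower and its neighbour Sgca higher in all 5 myogenic libraries. Rps3a2, Rps3a3 and Gstp2 also met the rule upward, but have near-identical copies that counting could split, so their values are uncertain.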
